A study of Mus musculus with 20 samples.

Results

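High-depth tiles were the stretches of 100 bp that drew far more methylation calls than the rest of the measured genome in a series of bisulfite libraries from mouse gametes and zygotic pronuclei. The genome was divided into tiles of 100 bp, and an autosomal tile was measured if it held at least 2 positions with 5 or more reads in all 20 libraries. In each library the calls of a tile, methylated plus unmethylated, were divided by the library's median over these tiles, and a tile was kept if the mean of this depth ratio over the 20 libraries was 5 or more. Of 15537 measured tiles, 144 met the limit. The 45 of them that lay in the Rn45s ribosomal RNA gene on chromosome 17 were left out, and the other 99 are described here. They lay on 18 chromosomes and formed 81 regions when tiles less than 500 bp apart were joined. Positions are given in the mm9 build, and no gene annotation of that build was used here, so tiles are named by position alone.

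A stretch of DNA present in many copies, such as a ribosomal RNA gene, a satellite repeat or a transposon family, sends reads from all its copies to the few copies that a reference genome holds. Reduced representation bisulfite sequencing reads CpG-rich fragments cut by MspI, and a reported level at such a place is then an average over copies that cannot be told apart. Sperm DNA is highly methylated, oocyte DNA less so, and after fertilization the paternal genome loses much of its methylation before the first cleavage, by oxidation through Tet3 and by dilution at replication. Aphidicolin inhibits the replicative DNA polymerases. Bisulfite treatment does not separate 5-methylcytosine from 5-hydroxymethylcytosine, so a level holds both.

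The series held 10 groups of 2 libraries. Sperm and Oocyte are the gametes. The other 8 groups are paternal (Pat) or maternal (Mat) pronuclei of zygotes from WT (f/f) or CKO (Zp3-Cre, f/-) females, 7 to 10 weeks old, in which Tet3 was removed from the oocyte through the Zp3 promoter, which is active in growing oocytes. All zygotes were made in vitro with sperm of C57BL/6J males. Those marked Aphi were kept in 3 µg/ml aphidicolin from 5 h after fertilization, pronuclei were isolated from 12 h and frozen at 13 h, and a library typically took about 20 pronuclei, pooled over zygotes, and 21 PCR cycles. Whether replicate libraries were made from different animals is not given in the sources used here, so p-values measure no spread beyond these libraries. In the quasi-binomial model used below that spread was the trend over all tiles with depth, not the spread of the single tile.

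Libraries held between 22431861 and 68056783 calls, and the median tile had 84 to 224 calls in a library. High-depth tiles took between 6.88% and 9.41% of all tile calls of a library, and the ribosomal RNA gene tiles took between 23.6% and 31.7%. Reads carried no molecular identifiers, and PCR copies were not separable from independent molecules. The parental labels were checked on the remaining tiles: 1548 tiles methylated in sperm only stood at group means between 53.6% and 92.0% in paternal pronuclei and between 4.16% and 10.0% in maternal ones. Files of the mock pronuclei listed chromosomes in sorted order and all other files did not, so this difference in how files were written and the treatment cannot be told apart. The same holds for mock pronuclei against gametes.

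The tiles were chosen by depth, so depth is given as a description. The mean depth ratio ran from 5.01 to 577 with a median of 6.76. The 3 tiles just inside the limit were chr16:18014001-18014100 (depth ratio 5.01), chr10:68862101-68862200 (5.04) and chr11:51464201-51464300 (5.05), and the 3 just outside were chr2:166888201-166888300 (4.99), chr17:87362401-87362500 (4.99) and chr2:127481901-127482000 (4.98). A single member tile had between 60 and 160208 calls in a library.

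The label multicopy was checked by dividing calls by the number of positions in the tile. A tile with many CpG positions gathers many calls without any copy being read more often. Only 41 of the 99 tiles also had a mean of at least 5 times the median calls per position, and these are called deep per position below. They had a median of 4 positions, formed 29 regions and had a median depth ratio of 29.8. The other 58 had a median of 11 positions and 1.56 times the median calls per position, so their depth came with their number of positions, and the name multicopy does not hold for them by this measure. At least 10 positions were present in 40 of these 58 tiles, in 4 of the 41 tiles deep per position and in 1.35% of the 15392 tiles that were neither members nor ribosomal RNA gene tiles (other tiles, below). The split at 5 was set after the values were seen.

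**Figure D1:**
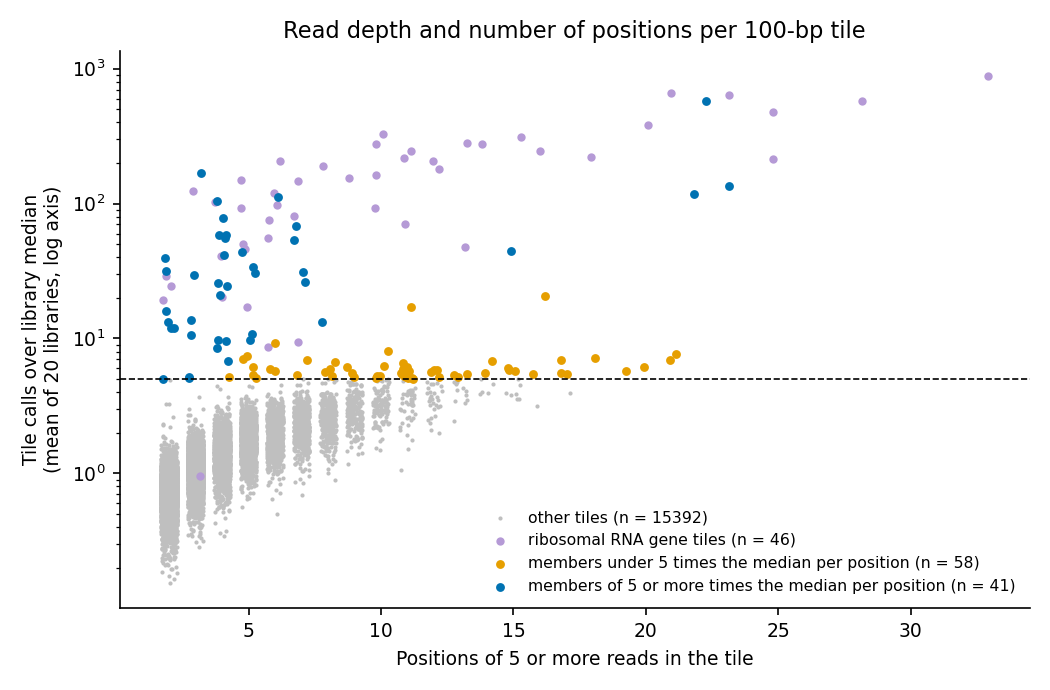
Each point is a 100-bp tile, placed by its number of positions with 5 or more reads (x, with a small horizontal scatter) and by its mean depth ratio over 20 libraries (y, log axis). The dashed line is the limit of 5. The 58 members under 5 times the median per position sit close above the line at many positions, while the 41 deep per position reach a depth ratio of 577.

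Near the first measured position of a chromosome, 9 of the 41 tiles deep per position lay within 1 Mb of it, against 0 of the 58 others and 0.994% of other tiles. Mouse chromosomes are numbered from the centromere, where satellite repeats lie. The 9 were 3 tiles of chr11:3093301-3093600, the pair chr11:3050601-3050800, and chr6:3132901-3133000, chr6:3597101-3597200, chr8:3754401-3754500 and chr9:3260301-3260400.

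The 10 regions of highest depth ratio were led by chr11:108873001-108873300, whose 3 tiles had depth ratios of 169, 58.8 and 577. Next came chr11:3093301-3093600, with 77.8, 136 and 29.8, chr16:11144101-11144200 with 118 and the 4 tiles of chr5:147072501-147072900 with 58.8, 30.7, 104 and 113. The other 6 were chr17:36368201-36368500 (34.2, 30.9 and 68.7), chr8:3754401-3754500 (55.8), chr16:57391701-57391800 (53.8), chr3:5860601-5860700 (44.4), chr18:68851701-68851800 (43.9) and chr14:120578601-120578700 (41.7). All tiles of these 10 regions were deep per position.

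Members differed in how even their depth was across the study's groups. The highest group mean over the lowest was 1.29 in chr5:147072701-147072800, 1.31 in chr11:108873001-108873100 and 1.36 in chr12:20239201-20239300, the 3 most even members. The median of this ratio was 1.95 in tiles deep per position, 2.26 in the other 58 members and 3.02 in other tiles. A depth from fewer calls varies more by sampling, and calls chose the members, so these medians are a description. The 3 least even members were chr8:96703401-96703500 with 28.1, chr8:96703301-96703400 with 21.3 and chr2:98506401-98506500 with 8.95, the last having its lowest mean depth ratio in sperm (2.32) and its highest in oocytes (20.7).

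The adjacent chromosome 8 tiles were deep in CKO libraries. At chr8:96703401-96703500 the depth ratios were 57.2 and 42.9 in CKO-Mat and 12.1 and 48.6 in CKO-Mat-Aphi. In CKO-Pat they were 11.1 and 2.90, in CKO-Pat-Aphi 8.96 and 0.817, and in the 12 WT and gamete libraries between 1.37 and 5.43. All 4 CKO-Mat and CKO-Mat-Aphi libraries lay above all 12 WT and gamete libraries, and the CKO paternal libraries overlapped the latter. The mean over the 12 WT and gamete libraries was 2.50, under the limit of 5, so this tile was chosen through its CKO libraries and the contrast is a description of the values that chose it.

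The neighbouring tile chr8:96703301-96703400 had 22.8 and 22.2 in CKO-Mat, 9.12 and 18.8 in CKO-Mat-Aphi, 5.91 and 1.59 in CKO-Pat, 4.43 and 1.63 in CKO-Pat-Aphi and between 0.467 and 2.01 in WT and gamete libraries. Their mean was 1.30, so this tile too was chosen through its CKO libraries. The nearest other tile, with a start 6400 bp away, had depth ratios between 0.405 and 2.38 in all 20 libraries. Among all 15537 tiles these were the only 2 whose lowest CKO maternal depth ratio was at least 2 times the highest of the WT and gamete libraries. This count uses the depth values that chose the pair, so it is a description without a test and lends no support. Both tiles are kept among those deep per position. Methylation at chr8:96703401-96703500 was 0.435% and 0.843% in CKO-Mat, 0% and 0% in CKO-Mat-Aphi, 0% in all WT-Mat and WT-Mat-Aphi libraries, and between 0% and 1.97% in gametes. In paternal pronuclei it was 20.0% and 4.28% in WT-Pat, 0% and 0% in WT-Pat-Aphi, 0.654% and 2.77% in CKO-Pat and 6.95% and 0% in CKO-Pat-Aphi, from 125 to 2140 calls. Per the labels the CKO females carried the Zp3-Cre transgene and the WT females did not, and its part in the depth was not tested.

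**Figure D2:**
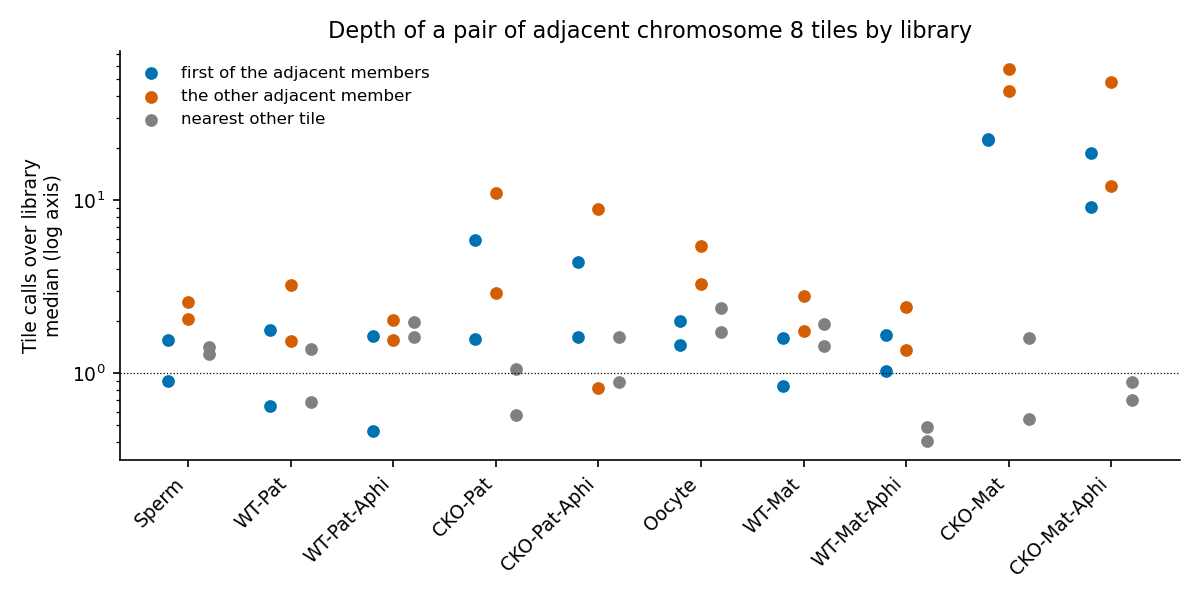
Depth ratio (y, log axis) of the adjacent tiles chr8:96703301-96703400 and chr8:96703401-96703500 and of the nearest other tile, with 1 point for each of the 2 libraries of a group (x). The members stand between 9.12 and 57.2 in the CKO maternal libraries, and the nearest other tile stays between 0.405 and 2.38 throughout.

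Methylation was not used in choosing the tiles. Members fell into gamete classes by the mean of the 2 sperm and the 2 oocyte libraries, with at least 75% read as high and at most 25% as low. Low levels in both gametes were found in 66 members, high levels in sperm only in 3, in oocytes only in 2 and in both in 4. The remaining 24 members, or 24.2%, were partly methylated in at least 1 gamete, against 8.25% of other tiles. Of these 24, 18 were deep per position.

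A level between 5% and 95% in every one of the 20 libraries was found in 20 of the 41 tiles deep per position, in 5 of the 58 other members, in 28 of the 46 ribosomal RNA gene tiles and in 24 of 15392 other tiles (0.156%). A level of at most 10% in all 20 libraries was found in 1 of the 41 and in 42 of the 58, against 45.8% of other tiles. The 58 members that were not deep per position were thus mostly unmethylated throughout, and 20 of those deep per position were neither empty nor full in any library. The median tile had 5155.5 calls among those deep per position, 938.25 among the 58 and 169.5 among other tiles. A level from fewer calls varies more by sampling and leaves a fixed range more easily in some library. Both counts therefore depend on the depth that chose the members, and the contrast with other tiles cannot be read as a difference in methylation.

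**Figure D3:**
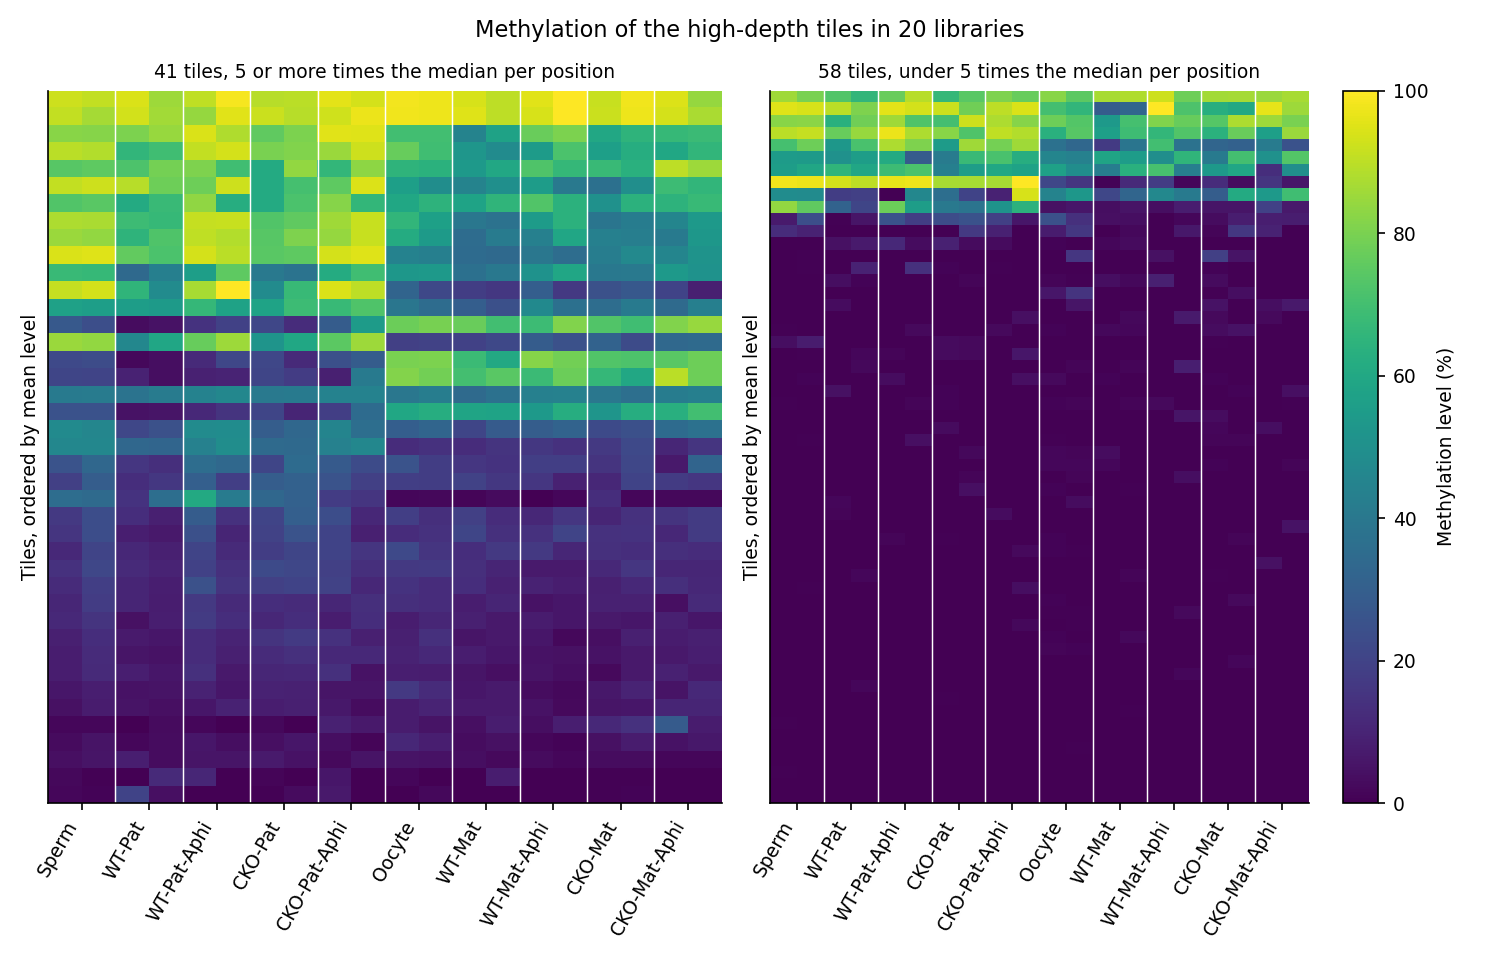
Methylation level (colour, %) of each member (vertical axis, ordered by mean level) in each library (horizontal axis, 2 per group), for the 41 tiles deep per position (left) and the 58 others (right). On the left 20 tiles stay between 5% and 95% in all 20 libraries, while 42 on the right stay at or under 10% throughout.

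Many of the deepest tiles were low in both gametes and yet were not empty. Of the tiles deep per position 18 were in this class, and their mean level was 11.01% ± 3.06 (SD, n = 2) in sperm, 10.9% ± 0.440 in oocytes, 7.54% ± 0.653 in WT-Pat and 8.63% ± 0.352 in WT-Mat. In the 48 members of the same class that were not deep per position the mean was 0.854% ± 0.260 in sperm, 1.45% ± 0.368 in oocytes, 0.549% ± 0.151 in WT-Pat and 0.428% ± 0.0786 in WT-Mat. In the 11327 other tiles of this class it was 1.04%, 1.14%, 2.14% and 0.908% in the same order.

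At chr11:108873001-108873100, with 3 positions, levels were 14.2% and 21.4% in sperm, 16.6% and 16.9% in oocytes, 12.1% and 10.1% in WT-Pat, 19.5% and 13.8% in WT-Pat-Aphi, 22.5% and 21.2% in CKO-Pat, and 18.8% and 13.4% in CKO-Pat-Aphi. In maternal pronuclei they were 13.4% and 10.2% in WT-Mat, 7.35% and 7.38% in WT-Mat-Aphi, 11.4% and 15.8% in CKO-Mat, and 10.8% and 10.8% in CKO-Mat-Aphi. The lowest libraries were those of WT-Mat-Aphi, and the CKO-Pat libraries lay above both WT-Pat libraries.

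The tile chr5:147072701-147072800 had 12.5% and 18.5% in sperm, 14.7% and 12.9% in oocytes, 10.3% and 8.38% in WT-Pat, 24.8% and 15.1% in WT-Pat-Aphi, 19.1% and 20.0% in CKO-Pat, and 19.7% and 11.03% in CKO-Pat-Aphi. Its maternal levels were 12.9% and 9.20% in WT-Mat, 9.62% and 8.08% in WT-Mat-Aphi, 8.67% and 11.5% in CKO-Mat, and 13.4% and 11.3% in CKO-Mat-Aphi. Here too the lowest paternal libraries were those of WT-Pat, and the 2 libraries of WT-Pat-Aphi were far apart.

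Replicates of 1 group differed at some of these tiles, and the order of the 2 libraries was compared with that in the ribosomal RNA gene tiles. Averaged over the 18 tiles, the library of a group with the higher level was also the higher over the 46 ribosomal RNA gene tiles in 9 of 10 groups. For single tiles of the 18 it was so in 4 to 9 of 10 groups, with 4 at both chromosome 8 tiles above, 5 at chr6:3132901-3133000, chr16:11144101-11144200 and chr18:68851701-68851800, and 9 at chr5:147072501-147072600, chr5:147072701-147072800 and chr16:57391701-57391800. For averages over other sets it was so in 3 of 10 groups for the 48 low members that were not deep per position and in 4 of 10 for the 11327 low other tiles. The mean over the 18 tiles ran from 6.11% in WT-Mat-Aphi 2 to 14.5% in WT-Pat-Aphi 1, and over the ribosomal RNA gene tiles from 8.03% in WT-Mat-Aphi 2 to 19.3% in CKO-Pat-Aphi 1. This comparison was made after the values were seen and has no test.

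Single positions inside some methylated tiles stayed low. At chr13:80188701-80188800, with a depth ratio of 39.7, the tile level lay between 34.7% and 46.5% in all 20 libraries. Its 2 positions took equal shares of the calls. Position 80188717 was between 0% and 0.556% in every library and position 80188741 between 69.3% and 92.9%, so the intermediate tile level was the average of an empty and a mostly full position.

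The tile chr11:3050701-3050800 had 4 positions, of which 3050784 was at 2.70% in oocytes and 3.08% in WT-Mat. The other 3 positions of that tile had between 70.5% and 85.8% in these groups. Among members with a level of at least 25% in a gamete, 6 of 189 positions, in 5 of 33 tiles, were at or under 10% in all 10 groups, against 36 of 10381 positions in 36 of 4066 other tiles. Whether the copies read hold a CpG at these positions was not tested.

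The deepest tile, chr11:108873201-108873300, with a depth ratio of 577 and 22 positions, had 8.00% and 12.1% in sperm, 9.67% and 11.5% in oocytes, 5.52% and 4.91% in WT-Pat, 12.5% and 13.8% in CKO-Pat, 7.96% and 5.88% in WT-Mat and 4.89% and 6.72% in CKO-Mat. Its 2 strands differed. A CpG site is read on both strands as adjacent positions, here called its first base and its second base, and methylation of such a site is usually symmetric. For the 9 sites read on both strands, the mean was 20.5% ± 5.80 (SD, n = 2) at the first base and 2.69% ± 0.298 at the second base in sperm, 18.5% ± 2.86 and 4.82% ± 0.141 in oocytes, and 10.2% ± 0.0346 and 1.90% ± 0.107 in WT-Pat.

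The first base was the higher in all 20 libraries, by between 5.89 and 24.6 points, and this held at each of the 9 sites in each library. Both strands were read deeply, with a median of 0.669 calls at first bases for each call at second bases. None of the other 18 members with at least 3 such sites had its first base higher in all 20 libraries. Many of these 18 were at or near 0% at both bases, where this could hardly arise. Among the more methylated ones the first base was higher in 15 libraries at chr16:11144101-11144200 and in 14 at chr7:89920401-89920500, chr12:20240001-20240100 and chr13:120277101-120277200. It was higher in 8 at chr3:5860601-5860700 and in 7 at chr11:3093401-3093500. The strand comparison was chosen after the values were seen and has no test.

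**Figure D4:**
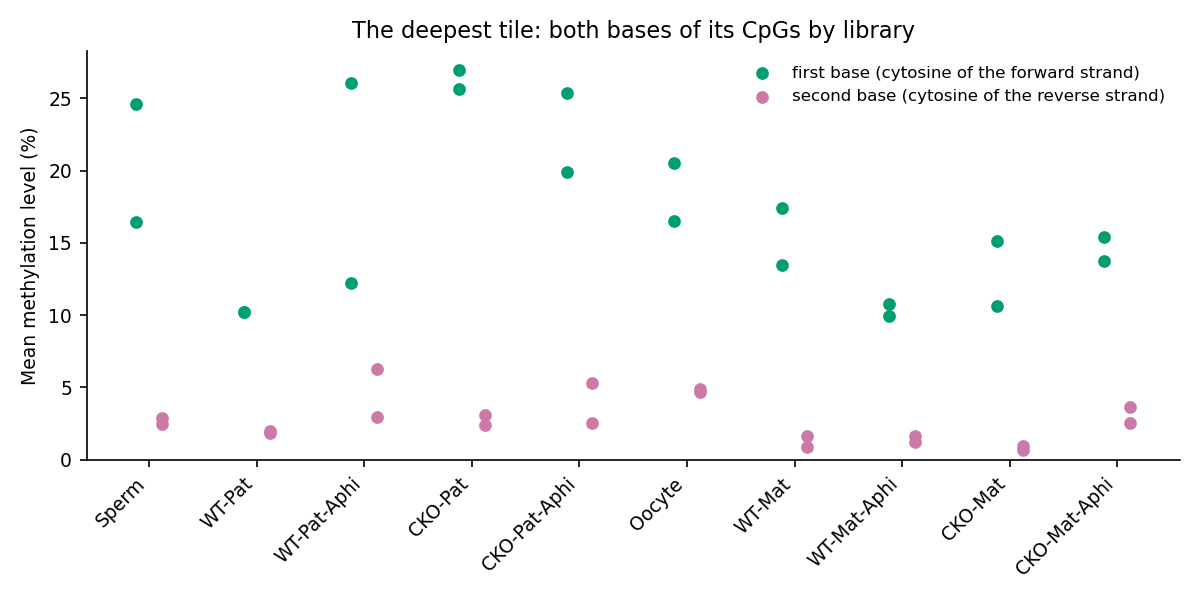
Mean methylation level (y, %) at the first and the second base of the 9 CpG sites of the deepest tile that were read on both strands, with 1 point for each of the 2 libraries of a group (x). The first base lies above the second in all 20 libraries, with a gap of 5.89 to 24.6 points.

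Conditions were compared by the difference of group means in percentage points. Every tile was tested with a quasi-binomial model fitted over all 15537 tiles and 20 libraries, with Benjamini-Hochberg adjustment over all tiles. Calls needed an adjusted p below 0.05 together with group means 10 or more points apart. Tiles of 1 region are not independent, and levels of comparisons that use the same group move together. In simulated data the model called 11 of 15 members changed by 40 points and 5 of 52 other tiles so changed. Depth thus makes a call easier, and depth chose the members. A share of called members above that of all tiles is therefore not read as a larger change. Over all 99 members the mean level was 24.8% ± 0.643 (SD, n = 2) in sperm, 19.2% ± 0.193 in WT-Pat, 24.7% ± 0.686 in WT-Pat-Aphi, 21.8% ± 1.21 in CKO-Pat and 24.8% ± 1.02 in CKO-Pat-Aphi. It was 20.1% ± 0.301 in oocytes, 16.4% ± 0.821 in WT-Mat, 19.2% ± 0.416 in WT-Mat-Aphi, 18.3% ± 1.20 in CKO-Mat and 20.0% ± 0.601 in CKO-Mat-Aphi.

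**Figure D5:**
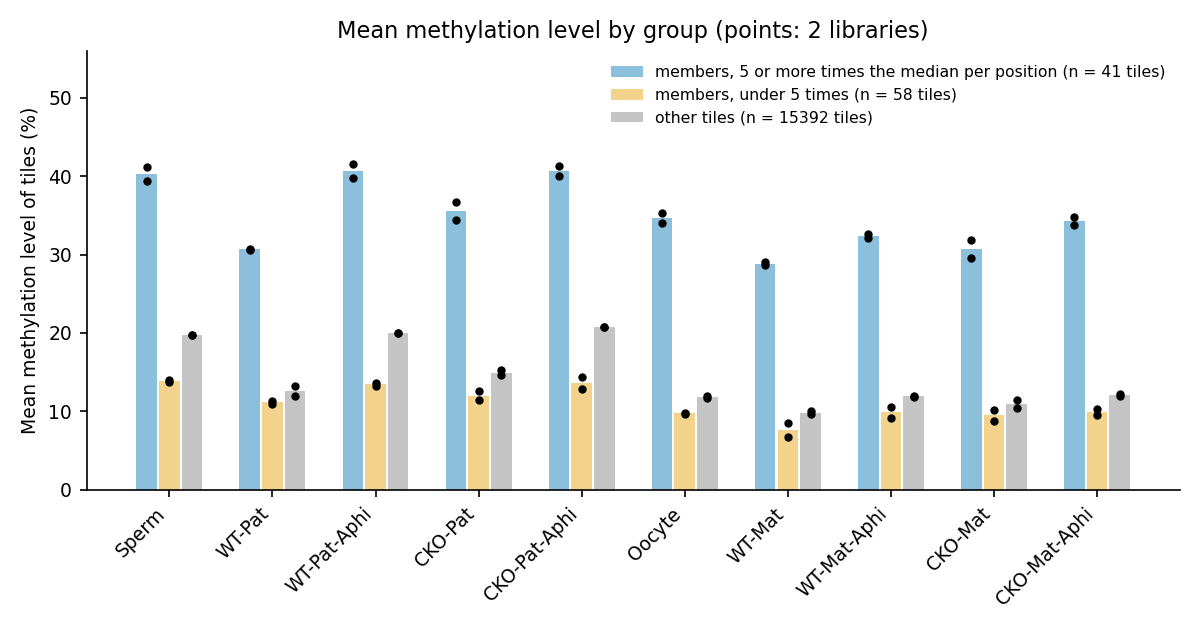
Mean methylation level (y, %) of the 41 members deep per position, the 58 other members and 15392 other tiles in each group (x). Bars are group means and points the 2 libraries. The tiles deep per position fell from 40.2% in sperm to 30.7% in WT-Pat and stood at 40.7% in WT-Pat-Aphi.

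Sperm and oocytes differed in methylation at more members than any other groups compared. In sperm 12 members were higher than in oocytes (background 9.07% of all tiles, or 12.1% of members), 9 of them deep per position, and 4 were lower (background 2.76%), all deep per position. These shares were near those of all tiles. Limma on arcsine square roots of the levels called 14 higher and 5 lower members (background 10.7% and 3.39%). The 5 with the largest differences kept their calls when any 1 of the 4 libraries was left out and with the replicate number as a block.

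At chr14:43986701-43986800 sperm had 97.8% and 97.1% and oocytes 21.5% and 15.4%, a difference of 79.0 points (adjusted p = 2.21e-09, quasi-binomial F test with Benjamini-Hochberg adjustment). At chr6:9554101-9554200 sperm had 83.8% and 75.7% and oocytes 4.67% and 6.02% (74.4 points, adjusted p = 4.94e-05 in the same quasi-binomial test). At chr16:18014001-18014100 the levels were 91.4% and 93.4% against 32.2% and 21.7% (65.4 points, adjusted p = 1.47e-05 in the quasi-binomial test). In each the groups did not overlap, and the sperm libraries were closest at chr14:43986701-43986800 and farthest apart at chr6:9554101-9554200.

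The deep tile chr14:120578601-120578700 had 84.9% and 83.8% in sperm and 19.1% and 19.9% in oocytes, 64.9 points apart (adjusted p = 2.31e-21, quasi-binomial test). The reverse was found at chr10:80641401-80641500, with 20.9% and 20.6% in sperm and 81.3% and 78.7% in oocytes, a difference of -59.3 points (adjusted p = 9.70e-07, quasi-binomial test). The other member methylated in oocytes only was chr10:80640801-80640900, at 21.9% and 23.2% in sperm and 80.1% and 80.2% in oocytes. Neither sperm level was near 0, whereas the 409 other tiles of that class had 3.37% in sperm.

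From sperm to the WT paternal pronucleus the mean of the 99 members changed by -5.55 points, with the 4 differences between single libraries from -6.14 to -4.96. The tiles deep per position changed by -9.57 points, the 58 others by -2.70 and other tiles by -7.17. These sets stood at 40.2%, 13.8% and 19.7% in sperm, so the changes start from unlike levels. Among tiles partly methylated in a gamete, those deep per position changed by -14.7 points from 63.6% and other tiles by -18.2 from 49.2%. The median member changed by -0.37 points and the median of all tiles by -0.22. In all, 5 members fell (background 0.759% of all tiles) and 0 rose (background 0.225%), 4 of the 5 deep per position and each in its own region. Whatever their p, 22.2% of members and 19.5% of all tiles were at least 10 points lower.

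The fall was called at chr14:120578601-120578700, from 84.9% and 83.8% in sperm to 46.2% and 59.1% in WT-Pat (adjusted p = 3.71e-05, quasi-binomial test). It was called at chr11:3093401-3093500, from 89.7% and 88.4% to 65.7% and 69.3% (adjusted p = 9.16e-06, quasi-binomial test). These 2 calls held whichever of the 4 libraries was left out. The tile chr9:17001301-17001400 fell from 94.4% and 95.0% to 76.1% and 71.6% (adjusted p = 0.000641, quasi-binomial test), with 0.0837 without sperm replicate 2 and 0.071 without WT-Pat replicate 2.

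The other 2 calls were close to the limit. At chr6:9554101-9554200 sperm had 83.8% and 75.7% and WT-Pat 31.5% and 20.7% (adjusted p = 0.0486, quasi-binomial test). At chr11:3050701-3050800 sperm had 25.1% and 25.04% and WT-Pat 5.02% and 5.77% (adjusted p = 0.0336, quasi-binomial test). In both the groups did not overlap, and both calls were lost whichever library was left out, with adjusted p between 0.102 and 0.798 and between 0.161 and 0.458 in the quasi-binomial test. Fitted on sperm and WT-Pat alone, 0 members were called. A limma fit on arcsine square roots of the levels called 12 lower members and 0 higher (background 4.99% and 0.792% of all tiles).

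Between oocytes and the WT maternal pronucleus the mean of members changed by -3.70 points (single libraries from -4.50 to -2.91), and that of other tiles by -2.00. In all, 2 members fell (background 0.0322% of all tiles) and 0 rose (background 0.00644%), both in 1 region. Whatever their p, 13.1% of members and 8.64% of all tiles were at least 10 points lower. At chr11:3093401-3093500 oocytes had 76.7% and 69.2% and WT-Mat 52.5% and 48.3% (adjusted p = 0.00076, quasi-binomial test). At chr11:3093301-3093400 they had 61.4% and 54.4%, and WT-Mat 35.4% and 41.6% (adjusted p = 0.0483, quasi-binomial test). The first call was lost without oocyte replicate 1 (adjusted p = 1.0) and without WT-Mat replicate 2 (adjusted p = 0.0972), the second whichever of the 4 libraries was left out, in the quasi-binomial test. With the replicate number as a block both adjusted p were 1.0 in that test, and limma gave 0.121 and 0.339. Limma called 2 lower members, in 2 regions, and 0 higher (background 0.232% and 0.0129% of all tiles).

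With aphidicolin paternal levels were higher at some deep tiles. In WT the mean of members was 5.50 points higher with aphidicolin (single libraries from 4.88 to 6.12). The difference was 10.0 points in tiles deep per position, 2.29 in the 58 others and 7.45 in other tiles. Their levels in WT-Pat were 30.7%, 11.1% and 12.6% in the same order. Among tiles partly methylated in a gamete it was 15.9 points in those deep per position and 14.1 in other tiles. In all, 4 members rose (background 0.335% of all tiles) and 0 fell (background 0%), all deep per position and in 3 regions. Whatever their p, 20.2% of members and 20.6% of all tiles were at least 10 points higher. Files of treated and mock libraries also differed in chromosome order, and the 2 cannot be told apart.

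The tile chr14:120578601-120578700 had 76.9% and 85.4% in WT-Pat-Aphi and 46.2% and 59.1% in WT-Pat (28.5 points, adjusted p = 0.0104, quasi-binomial test). Its level with aphidicolin was close to the 84.9% and 83.8% of sperm. At chr11:3093401-3093500 the levels were 90.7% and 93.4% with aphidicolin and 65.7% and 69.3% without (24.5 points, adjusted p = 5.08e-05, quasi-binomial test). The adjoining chr11:3093501-3093600 had 91.1% and 91.6% against 68.5% and 67.0% (23.6 points, adjusted p = 0.0462, quasi-binomial test).

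The fourth, chr3:5860601-5860700, had 35.7% and 33.6% with aphidicolin and 15.6% and 13.4% without (20.2 points, adjusted p = 0.0457, quasi-binomial test). In all 4 tiles both treated libraries lay above both mock ones. Without WT-Pat-Aphi replicate 2 none of the 4 was called, with adjusted p between 0.973 and 1.0 in the quasi-binomial test, although the differences were between 21.2 and 24.2 points. Without WT-Pat replicate 1 only chr11:3093401-3093500 was called, and chr14:120578601-120578700 had an adjusted p of 0.189. With the replicate number as a block none was called, and limma called 11 higher and 0 lower members (background 5.08% and 0.322% of all tiles).

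In the CKO paternal pronucleus aphidicolin went with a mean 3.07 points higher (single libraries from 1.49 to 4.64), against 5.77 in other tiles. Whatever their p, 17.2% of members and 20.8% of all tiles were at least 10 points higher. The only member called was chr9:17001301-17001400 (background 0.0901% of all tiles for higher and 0% for lower). It had 93.7% and 95.1% in CKO-Pat-Aphi and 74.4% and 75.1% in CKO-Pat (19.7 points, adjusted p = 0.0118, quasi-binomial test), levels close to those of sperm and of WT-Pat. The call was lost whichever of the 4 libraries was left out, with adjusted p between 0.0695 and 0.212 in the quasi-binomial test, and was kept with the replicate number as a block (adjusted p = 0.00373). Limma called 5 higher and 0 lower members (background 2.19% and 0.257% of all tiles).

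Loss of maternal Tet3 was compared within mock and within treated pronuclei. In mock paternal pronuclei members were 2.52 points higher in CKO-Pat than in WT-Pat (single libraries from 1.54 to 3.51), and other tiles 2.36 points higher. The 18 tiles deep per position and low in both gametes were 5.62 points higher (single libraries from 4.55 to 6.70), and the ribosomal RNA gene tiles 8.46 points higher. Over the 18 tiles the 2 libraries of 1 group were also far apart in places. They had 14.5% and 8.87% in WT-Pat-Aphi, 8.84% and 13.2% in sperm and 12.6% and 8.49% in CKO-Pat-Aphi, and were closer in all other groups. In all, 2 members rose (background 0.103% of all tiles) and 0 fell (background 0.00644%), and both belonged to these 18. Among all measured tiles 16 rose, of which 14 were ribosomal RNA gene tiles. Whatever their p, 14.1% of members and 13.9% of all tiles were at least 10 points higher.

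At chr5:147072501-147072600 CKO-Pat had 20.6% and 30.3% and WT-Pat 13.0% and 8.80% (14.6 points, adjusted p = 0.012, quasi-binomial test). At chr11:108873001-108873100 CKO-Pat had 22.5% and 21.2% and WT-Pat 12.1% and 10.1% (10.8 points, adjusted p = 0.0133, quasi-binomial test). The groups did not overlap in either tile, and sperm at the second tile had 14.2% and 21.4%, 1 library between the groups and 1 within the CKO-Pat range. The second call was lost whichever library was left out, with adjusted p between 0.0797 and 1.0 in the quasi-binomial test. The first was kept only without CKO-Pat replicate 1. It had adjusted p of 1.0 without CKO-Pat replicate 2, 0.051 without WT-Pat replicate 1 and 1.0 without WT-Pat replicate 2. Limma gave 0.416 and 0.108 for these tiles and called 1 other member higher and 0 lower (background 0.695% and 0.264% of all tiles), and the replicate block gave 0.893 and 0.597.

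The other 5 comparisons of 2 groups called 0 members, each with a background of 0% of all tiles in the quasi-binomial test. An unadjusted p under 0.05 was found in 9 members for WT-Mat-Aphi against WT-Mat, 5 for CKO-Mat against WT-Mat, 5 for CKO-Mat-Aphi against CKO-Mat, 6 for CKO-Pat-Aphi against WT-Pat-Aphi and 1 for CKO-Mat-Aphi against WT-Mat-Aphi. These were 9.09%, 5.05%, 5.05%, 6.06% and 1.01% of members, beside 2.04%, 1.4%, 2.14%, 1.67% and 1.43% of all tiles, and nothing is read from them about the members. Limma called 1 higher and 0 lower member in the first of these (background 0.187% and 0.0515% of all tiles). It called 0 in the others, with backgrounds for higher and lower of 0.103% and 0.116%, 0.367% and 0.193%, 0.335% and 0.18%, and 0.142% and 0.116% in the order given. The largest non-overlapping difference with aphidicolin in WT maternal pronuclei was at chr4:146593601-146593700, with 100% and 72.01% against 29.1% and 32.9% (55.04 points, adjusted p = 0.219, quasi-binomial test).

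The same tile led 2 other comparisons, with 62.6% and 60.4% in CKO-Mat and 96.3% and 85.5% in CKO-Mat-Aphi (adjusted p = 1.0 in both, quasi-binomial test). Next in WT-Mat-Aphi against WT-Mat were chr13:104739401-104739500, with 77.3% and 80.4% against 44.8% and 57.5%, the member that limma called (adjusted p = 0.0182), and chr11:3093501-3093600, with 54.96% and 64.3% against 39.7% and 37.5%. Mean differences in these comparisons were 2.84 points for aphidicolin in WT-Mat, 1.89 for genotype in mock maternal pronuclei, 1.72 for aphidicolin in CKO-Mat, 0.0937 for genotype in treated paternal pronuclei and 0.764 in treated maternal ones, against 2.12, 1.16, 1.08, 0.679 and 0.118 in other tiles.

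With aphidicolin the largest non-overlapping difference by genotype in paternal pronuclei was at chr8:20019801-20019900, with 17.9% and 15.3% in CKO-Pat-Aphi and 60.8% and 41.8% in WT-Pat-Aphi (adjusted p = 1.0, quasi-binomial test). In maternal ones it was at chr12:20237601-20237700, with 68.5% and 65.9% in CKO-Mat-Aphi and 55.3% and 40.3% in WT-Mat-Aphi (adjusted p = 1.0, quasi-binomial test). The other tiles with large non-overlapping differences, none called, were chr12:20240001-20240100 (18.7 points) and chr8:74659601-74659700 (11.97) for CKO-Mat against WT-Mat, and chr13:120277801-120277900 (-25.3) and chr12:20237601-20237700 (24.01) for CKO-Mat-Aphi against CKO-Mat. With aphidicolin they were chr11:3050601-3050700 (24.98) and chr13:120277701-120277800 (21.8) for CKO-Pat against WT-Pat, and chr12:20239201-20239300 (18.1) and chr4:46594601-46594700 (18.01) for CKO-Mat against WT-Mat.

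Whether the effect of aphidicolin differed by genotype was tested with an interaction term. It called 0 members in either parental genome in the quasi-binomial test (background 0.0515% of all paternal tiles for lower, all 8 of them ribosomal RNA gene tiles, and 0% for the rest) and 0 with limma (background 0.148% higher and 0.27% lower for the paternal and 0.129% and 0.142% for the maternal term), and 11 paternal and 2 maternal members had an unadjusted p under 0.05 (11.1% and 2.02% of members, beside 1.57% and 1.14% of all tiles).

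Of the 4 members methylated in both gametes, 2 were deep per position and adjacent. The first, chr7:89920401-89920500, had 92.2% and 91.0% in sperm, 98.1% and 97.3% in oocytes and 94.2% and 85.2% in WT-Pat, and its neighbour chr7:89920501-89920600 had 93.2% and 86.1% in WT-Pat. At chr13:120277101-120277200 the levels were 85.8% and 80.0% in sperm and 72.8% and 65.7% in WT-Pat, and at chr12:20240001-20240100 they were 82.4% and 82.6% in sperm and 63.4% and 78.3% in WT-Pat. The mean of these 4 in WT-Pat was 79.9%, against 53.9% over the 838 other tiles of this class, and the difference between the 2 sets was not tested.

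High depth went with smaller gaps between the libraries of a group. Among members with a group mean between 20% and 80%, 17 to 28 in a group, the median gap between the 2 libraries lay between 1.28 points in sperm and 11.8 points in WT-Pat-Aphi. Among other tiles of this range it lay between 5.70 points in sperm and 47.7 points in WT-Mat-Aphi. The members' gap was the smaller in 10 of 10 groups. The median tile had 1065.5 calls among members and 169.5 among other tiles. A level from more calls varies less by sampling, and calls chose the members, so the rule itself favoured smaller gaps. The dispersion that the model used at members followed the trend over all tiles with depth. The raw dispersion lay below that trend in 74 of the 90 members that had one, with a median of 0.489 of the trend value.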

How the data were processed

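Reduced representation bisulfite libraries of mouse gametes and pronuclei, 2 per group, were compared. The submitters' processing notes name Trim Galore, Bismark 0.10.1 and the mm9 build, and how duplicates and multiply mapped reads were treated is not given in the sources used here. For each cytosine position the authors deposited counts of methylated and unmethylated calls and the percent methylated. Depth was 22431861 to 68056783 calls per library.

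Positions covered by 5 or more reads in every library were kept, and their calls were summed in tiles of 100 bp that held 2 or more of them. A tile's level is the percent of its calls that are methylated, set means weight tiles equally, and gamete classes used limits of 75% and 25%. Each of 15537 tiles was fitted with a quasi-binomial model over 10 groups in R 4.3.3. Its dispersion was shrunk with limma 3.58.1 (squeezeVar, trended on log2 mean depth, floor of 1), contrasts were tested with an F test with Benjamini-Hochberg adjustment, and tiles were called at an adjusted p under 0.05 and 10 points. The prior degrees of freedom were infinite, so each tile took the dispersion of its depth. The model was tested on simulated data for CKO-Pat against WT-Pat. Of members changed by 20, 40 and 60 points it called 3 of 13, 11 of 15 and 12 of 12. Of other tiles it called 0 of 54, 5 of 52 and 10 of 54, and of unchanged tiles 0 of 15337. Counts were drawn with the model's own fitted dispersions, so those were not checked. Limma called 8, 12 and 12 of the same members, 16, 27 and 40 of the other tiles and 18 unchanged tiles.

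Tiles were named by rule: the 10 regions of highest depth ratio, the 3 on each side of the limit, up to 5 called members per comparison with the largest non-overlapping difference or otherwise 3 uncalled ones, the 2 deepest of each gamete class, and the 3 most and 3 least even in depth. Members and lists were chosen with earlier results of these data known. Alternatives were another read minimum, other depth limits, keeping the ribosomal RNA gene, pooled calls, limma on arcsine square roots, other samples in the fit, another dispersion floor, a replicate block and leaving out each library.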

Additional observations from a re-analysis of the deposited data

Results flagged for a closer look

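Calls on chromosome Y, outside the tiles, exceeded the oocyte level in all maternal pronuclear libraries. Chromosome Y held 3.44e-05% and 4.41e-05% of calls in the oocyte libraries. Its share was 0.000692% and 0.000198% in WT-Mat, 6.77e-05% and 0.000508% in WT-Mat-Aphi, 0.00297% and 0.000296% in CKO-Mat and 0.00163% and 9.3e-05% in CKO-Mat-Aphi. It was 0.0111% and 0.0117% in sperm and between 0.00597% and 0.0219% in paternal pronuclei, and its part in the maternal levels of the tiles was not tested.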

How the results depend on the processing

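The number of called members depended on the model. With limma it was 12 for WT-Pat against Sperm, 11 for WT-Pat-Aphi against WT-Pat, 1 for WT-Mat-Aphi against WT-Mat, 1 for CKO-Pat against WT-Pat and 5 for CKO-Pat-Aphi against CKO-Pat. Fitted on the compared groups only, it was 0 for WT-Pat against Sperm and 1 for WT-Pat-Aphi against WT-Pat. It was 7 for CKO-Pat against WT-Pat and 0 for CKO-Pat-Aphi against CKO-Pat. Over all 15537 tiles that fit called 0, 8, 21 and 0 in the same order. On libraries of 1 parent it was 3, 2 and 0 for the first 3 of these. Over all 15537 tiles that fit called 28 higher and 85 lower, 40 higher and 0 lower, and 13 higher and 0 lower. The fit on 1 parent was not possible for Sperm against Oocyte. Setting the floor before shrinkage left 1 lower member for WT-Mat against Oocyte, beside 1 higher and 3 lower of all 15537 tiles. A depth ratio of at least 3 made 591 tiles, so its counts come from a larger set. Of the 591, 33 were called for Sperm against Oocyte, 19 higher and 14 lower. The limit of 5 gave 12 higher and 4 lower of 99, and all 15537 tiles 1409 and 429. For WT-Pat against Sperm 11 of the 591 were called, 3 higher and 8 lower, beside 35 and 118 of all tiles. For CKO-Pat-Aphi against CKO-Pat 3 of the 591 were higher, beside 14 of all tiles. Keeping the ribosomal RNA gene made 144 tiles. Of them 10 were lower for WT-Pat against Sperm (background 0.759% of all tiles) and 11 higher for WT-Pat-Aphi against WT-Pat (0.335%). For CKO-Pat against WT-Pat 16 were higher (0.103%), and for the paternal interaction 8 were lower (0.0515%).

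With the replicate number as a block, 3 members were called for WT-Pat against Sperm and 0 for WT-Mat against Oocyte, WT-Pat-Aphi against WT-Pat and CKO-Pat against WT-Pat. Of all 15537 tiles 3 were higher and 23 lower, 0 and 0, 1 and 0, and 1 and 0 in the same order. Deviations of same-numbered libraries correlated at -0.0301 to 0.0591 over all tiles, and over the 99 members at -0.457 (WT-Mat-Aphi against WT-Mat) to 0.599 (CKO-Pat-Aphi against WT-Pat-Aphi). The labels do not say what a number marks, so it was not used as a pairing.

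Leaving out 1 library leaves 1 in its group. In the comparisons that had called members, calls were then as many or fewer, among members and among all tiles. Mean differences ran from 4.24 to 5.15 points for Sperm against Oocyte and from -6.00 to -5.09 for WT-Pat against Sperm. They ran from -4.28 to -3.12 for WT-Mat against Oocyte and from 5.01 to 5.98 for WT-Pat-Aphi against WT-Pat. For CKO-Pat against WT-Pat they ran from 1.67 to 3.38, and for CKO-Pat-Aphi against CKO-Pat from 2.22 to 3.92. The mean difference of CKO-Pat-Aphi against WT-Pat-Aphi ran from -0.629 to 0.816 points.

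Pooling all calls weights the deepest tiles. Mean differences were then 2.23 for Sperm against Oocyte, -8.06 for WT-Pat against Sperm, -5.71 for WT-Mat against Oocyte, 6.35 for WT-Pat-Aphi against WT-Pat, 10.3 for CKO-Pat against WT-Pat, 3.82 for CKO-Pat-Aphi against WT-Pat-Aphi, 3.01 for CKO-Mat-Aphi against WT-Mat-Aphi and -6.43 for the paternal interaction. The sign turned for WT-Mat-Aphi against WT-Mat (-0.515), CKO-Pat-Aphi against CKO-Pat (-0.0851) and the maternal interaction (2.27). Positions of 10 reads gave 3.32 for Sperm against Oocyte. A depth ratio of at least 3 gave 0.402 for Sperm against Oocyte, -1.11 for WT-Pat against Sperm, -1.26 for WT-Mat against Oocyte, 1.96 and 1.07 for aphidicolin in WT-Pat and WT-Mat, 0.667 for CKO-Pat against WT-Pat, 1.47 for CKO-Pat-Aphi against CKO-Pat and -0.485 for the paternal interaction. A ratio of at least 10 gave 2.44 for Sperm against Oocyte, -10.5 for WT-Pat against Sperm, -5.58 for WT-Mat against Oocyte, 10.6 for WT-Pat-Aphi against WT-Pat, 6.61 for CKO-Pat against WT-Pat, 1.67 for CKO-Mat-Aphi against WT-Mat-Aphi and -7.06 for the paternal interaction. Keeping the ribosomal RNA gene gave 2.61 for Sperm against Oocyte, 0.693 for WT-Mat-Aphi against WT-Mat, 4.46 for CKO-Pat against WT-Pat, 1.93 for CKO-Mat-Aphi against WT-Mat-Aphi and 1.14, with the sign turned, for the maternal interaction. The median depth ratio was 8.74 with positions of 10 reads, 3.53 at a limit of 3 and 31.6 at a limit of 10. Calls of named tiles were lost under many alternatives, as given with the tiles, and 0 differences reversed in sign. The other depth limits and keeping the ribosomal RNA gene reuse the same fit. The values of a single tile could not change under them. The cause of these changes was not tested.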
